A study of Caenorhabditis elegans with 6 samples.

Results

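Retrotransposons are mobile elements that copy themselves through an RNA intermediate, and the data here describe the 22G-RNAs that lie antisense to them in Caenorhabditis elegans. The rows were chosen by name: every row of the deposited tables that is not a gene and whose identifier begins with Cer, LTR, LINE, RTE, NeSL, Vingi, Sam or Frodo. Of the 22336 rows, 56 carry such a name, and 55 of them had a count in at least 1 library. CER4-LTR_CE was at 0 in all 6 libraries, and rows named Sam or Frodo were not found. The tables give 1 row per family, added up over all of its copies in the WBcel235 genome, without positions, copy numbers or lengths. A count is therefore a total for a family, and an order of counts is not an order of levels per length or per copy.

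The libraries were made from whole gravid adults collected 63 hours after plating, with wild-type N2 sampled 3 times and each of the genotypes lotr-1(xf58) I, lotr-1(xf60) I and lotr-1(xf61) I sampled 1 time. The LOTR-1 protein carries LOTUS and Tudor domains and sits in Z granules, which are compartments next to the P granules of germ cells. The deletion in xf58 takes out most of the LOTUS part and keeps the reading frame, whereas those in xf60 and xf61 shift it and end in a stop codon. All RNA was treated with RppH, a pyrophosphohydrolase that turns the triphosphate at the start of 22G-RNAs into a monophosphate so that they can be cloned. As in the methods of the study, the 3 alleles served as triplicates, so the spread among the mutant libraries holds differences between alleles as well as between worm populations, and these cannot be told apart. Nothing in the labels says whether the wild-type libraries came from separate cultures, so p-values measure only the spread between these samples. In whole animals, fewer germ cells and fewer 22G-RNAs per germ cell cannot be told apart.

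Elements of the Cer group resemble retroviruses, with an internal part that encodes the proteins and a long terminal repeat, or LTR, at either end. Non-LTR retrotransposons lack these repeats and are copied directly into a nick in the target DNA. They include RTE1, the LINE2 and Vingi families, and NeSL-1, which inserts into the spliced leader genes of nematodes. In the worm germline, RNA-dependent RNA polymerases use the transcripts of silenced loci as templates for 22G-RNAs. WAGO-class Argonautes bind these 22G-RNAs and silence the matching transcripts, many of which come from mobile elements. The antisense counts thus follow the small RNAs made against an element and not the transcript or the movement of the element.

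Of the 55 rows, 18 are internal parts of Cer elements, 20 are LTR parts, 13 are non-LTR families, and 4 have names that place them in none of these groups. The 4 are CeRep1A, CERP4, LTR1_CE and LTR2_CE, which are kept because their letters fit the naming rule, although the tables do not give their repeat class. Library totals ranged from 3706296 to 4520488 counts, with 53 or 54 of the 55 rows detected in each library. Levels are given below as CPM, the count of a row after scaling the library total to 1000000. The wild-type libraries were close to one another, with an edgeR common dispersion of 0.00181, against 0.125 among the mutant libraries. The targeted gene lotr-1 had 245, 293 and 275 counts in wild-type, against 88, 20 and 47 in xf58, xf60 and xf61. These are 22G-RNAs against the gene, so they do not measure its transcript.

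The scale of the comparison matters for every family. The TMM factors of edgeR, which set the typical locus of each library equal, were between 1.36 and 1.39 in wild-type and lay from 0.657 to 0.843 in the mutants. The median log2 fold change of the 9285 loci tested came to 0.01 with TMM factors but to −0.88 with total counts, and the difference between both was −0.90. A log2 fold change from TMM factors thus states a change relative to the typical locus, and one from total counts states a change in the share of all 22G-RNAs. Both are given for most families described.

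Retrotransposon families held a larger share of the 22G-RNAs in every lotr-1 mutant library than in any wild-type library. It came to 6.36%, 6.15% and 5.93% in wild-type, against 6.95% in xf58, 8.99% in xf60 and 9.11% in xf61, each with a 95% exact binomial interval no wider than 0.0554 percentage points, which covers counting error only. The mean was 6.14% ± 0.215 (SD, n = 3) in wild-type, against 8.35% ± 1.21 (SD, n = 3) in the mutants. The frameshift alleles stood well above xf58, which lay just above the wild-type range. Of the counts on all 151 repeat families, the retrotransposons made up 59.4% ± 0.521 (SD, n = 3) in wild-type, against 62.6% ± 2.38 (SD, n = 3) in the mutants. The xf58 library, with 59.9%, lay within the wild-type range of 58.9% to 59.9%, and xf60 and xf61 lay above it with 64.3% and 63.6%. The other repeat families held 4.19% ± 0.0595 (SD, n = 3) of all counts in wild-type, against 4.95% ± 0.273 (SD, n = 3) in the mutants.

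The classes contributed unequally to the larger share. LTR parts held 0.586% ± 0.0268 (SD, n = 3) of all counts in wild-type, against 1.29% ± 0.15 (SD, n = 3) in the mutants, and all 3 mutant libraries lay far above wild-type. Internal parts held 3.12% ± 0.134 (SD, n = 3) and 4.10% ± 0.874 (SD, n = 3), but xf58, with 3.09%, lay within the wild-type range of 2.98% to 3.25%. Non-LTR families held 2.39% ± 0.0567 (SD, n = 3) and 2.95% ± 0.205 (SD, n = 3), without overlap between the groups.

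**Figure D1:**
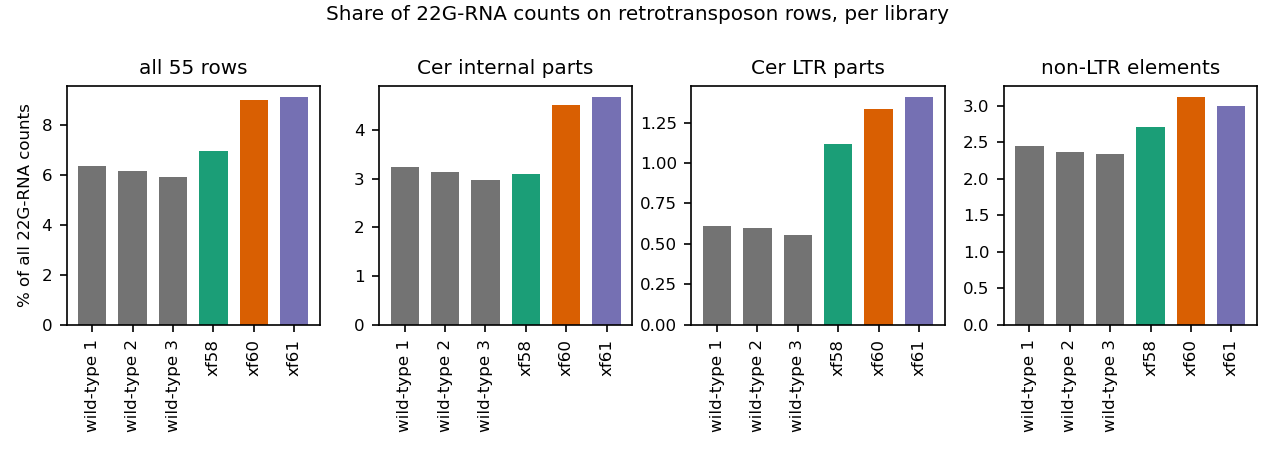
Share of all 22G-RNA counts in percent (vertical axes, each from 0) on the 55 retrotransposon rows and on the Cer internal parts, Cer LTR parts and non-LTR elements among them, with 1 bar per library. The mutant bars lie above wild-type for LTR parts and non-LTR elements, whereas for internal parts xf58 lies among the wild-type libraries.

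Few families carried most of the counts. The 10 rows with the highest wild-type means held 82.8% of the retrotransposon counts in wild-type, and the first 3 held 48.6%. NeSL-1 came first with 15685, 15293 and 15222 CPM, followed by CER9-I_CE with 9526, 9326 and 8760. The next rows were CER8-I_CE, with a mean of 5241, and CER3-I_CE, with 4939, whose wild-type ranges overlapped. LINE2A_CE (3233) and CER10-I_CE (3117) also overlapped in wild-type, as did CER16-2-I_CE (2418) and CER16-I_CE (2415), with RTE1 (2764) between these pairs. In the mutants NeSL-1 and CER9-I_CE kept ranks 1 and 2, CER16-2-I_CE moved from rank 8 to rank 3 and CER10-I_CE from rank 6 to rank 14. CER1 moved from rank 40 to rank 23. Of the net gain of 22062 CPM between the group means, CER16-2-I_CE made up 24.0%, CER9-I_CE 23.8%, NeSL-1 11.2% and CER16-2-LTR_CE 10.1%. The order differed between alleles, since in xf58, with a net gain of 8084 CPM, NeSL-1 made up 24.2%, CER9-I_CE 20.5% and CER16-2-I_CE 2.52%. The net gains in xf60 and xf61 were 28467 and 29634 CPM, of which CER16-2-I_CE made up 29.2% and 24.9%. Without these 4 rows the share of all counts was 3.56%, 3.42% and 3.28% in wild-type, against 3.78%, 4.18% and 4.35% in xf58, xf60 and xf61, again without overlap.

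**Figure D2:**
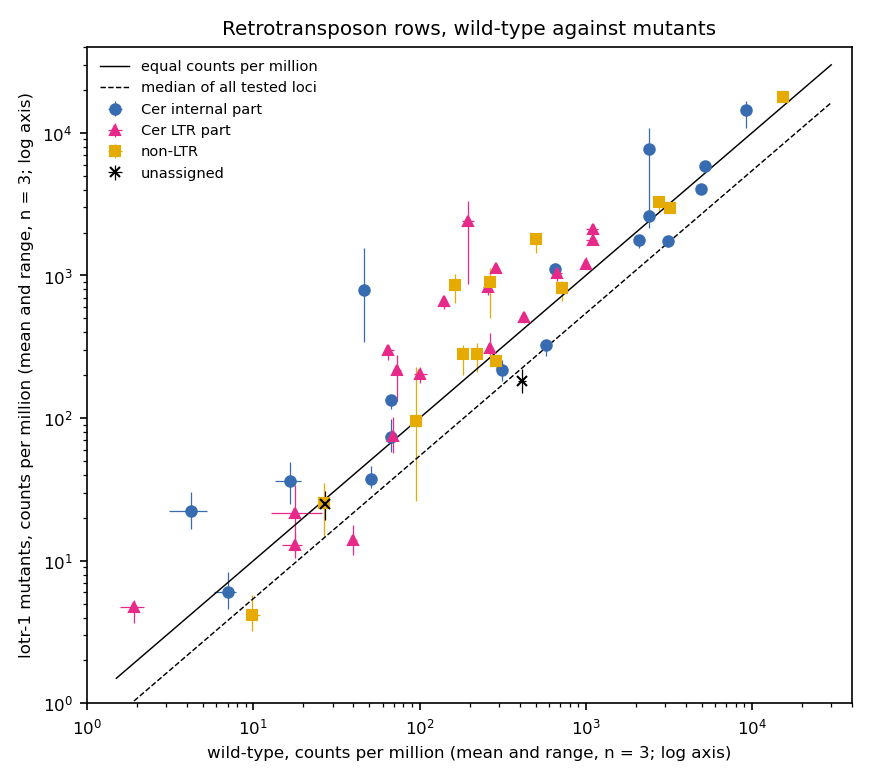
Mean CPM of the 50 tested rows in wild-type (horizontal log axis) and in the lotr-1 mutants (vertical log axis), with bars from the lowest to the highest of the 3 libraries. Points above the solid line hold a larger share of the 22G-RNAs in the mutants, and 47 of the 50 lie above the dashed line, which marks the median of all tested loci.

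The whole table was fitted with the quasi-likelihood test of edgeR, wild-type against mutants, and the cutoffs for a call were an adjusted p (Benjamini-Hochberg over all loci) under 0.1 together with a difference above 2-fold. With TMM factors 33 of the 50 rows tested were called up and 0 down, where 36.4% of all loci were called, 18.8% up and 17.6% down. Their median log2 fold change was 1.16, beside 0.01 for all loci and 1.00 for the 85 other repeat families tested, of which 43 were called up and 1 down. With total counts 15 of the 50 were called up and 3 down, against 8.68% and 44.6% of all loci, and the median was 0.26, beside −0.88 for all loci. All 15 rows called up were also called up with TMM factors, namely 8 LTR parts, 4 internal parts and 3 non-LTR families. Without the fold cutoff, 1 row had an adjusted p under 0.1 and fell with TMM factors, CER7-LTR_CE. Of the tested rows, CER5-LTR_CE passed the filter on low counts through the mutant libraries only, and without it 32 of 49 were called up with TMM factors and 14 with total counts. The remaining 5 rows had at most 12 counts in any library and were not tested.

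With TMM factors, all 3 mutant libraries lay above all 3 wild-type libraries at 41 of the 50 rows and below them at 2, where 61.8% of all loci did not overlap, 29.7% above and 32.2% below. By CPM, all 3 mutant libraries lay above all 3 wild-type libraries at 25 of the 50 rows and below them at 9, against 12.2% and 65.5% of all loci. By class, 15 of 18 LTR parts, 10 of 17 internal parts and 8 of 13 non-LTR families were called up with TMM factors, with medians of 1.72, 1.05 and 1.13 on the log2 scale. With total counts the calls were 8 up and 1 down, 4 and 0, and 3 and 1 in the same order, with medians of 0.80, 0.13 and 0.21. Of all loci 18.8% were called up with TMM factors, and 8.68% up and 44.6% down with total counts. The LTR counts and medians include CER5-LTR_CE, called up on both scales, which passed the filter on low counts through the mutant libraries only. Neither of the tested rows of no class was called up on either scale, and the sign of the change differed between the scales at 13 of the 50 rows. Across the 50 rows, which share the 6 libraries, the log2 fold change with TMM factors had a Pearson correlation of −0.12 with the log10 of the wild-type level.

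**Figure D3:**
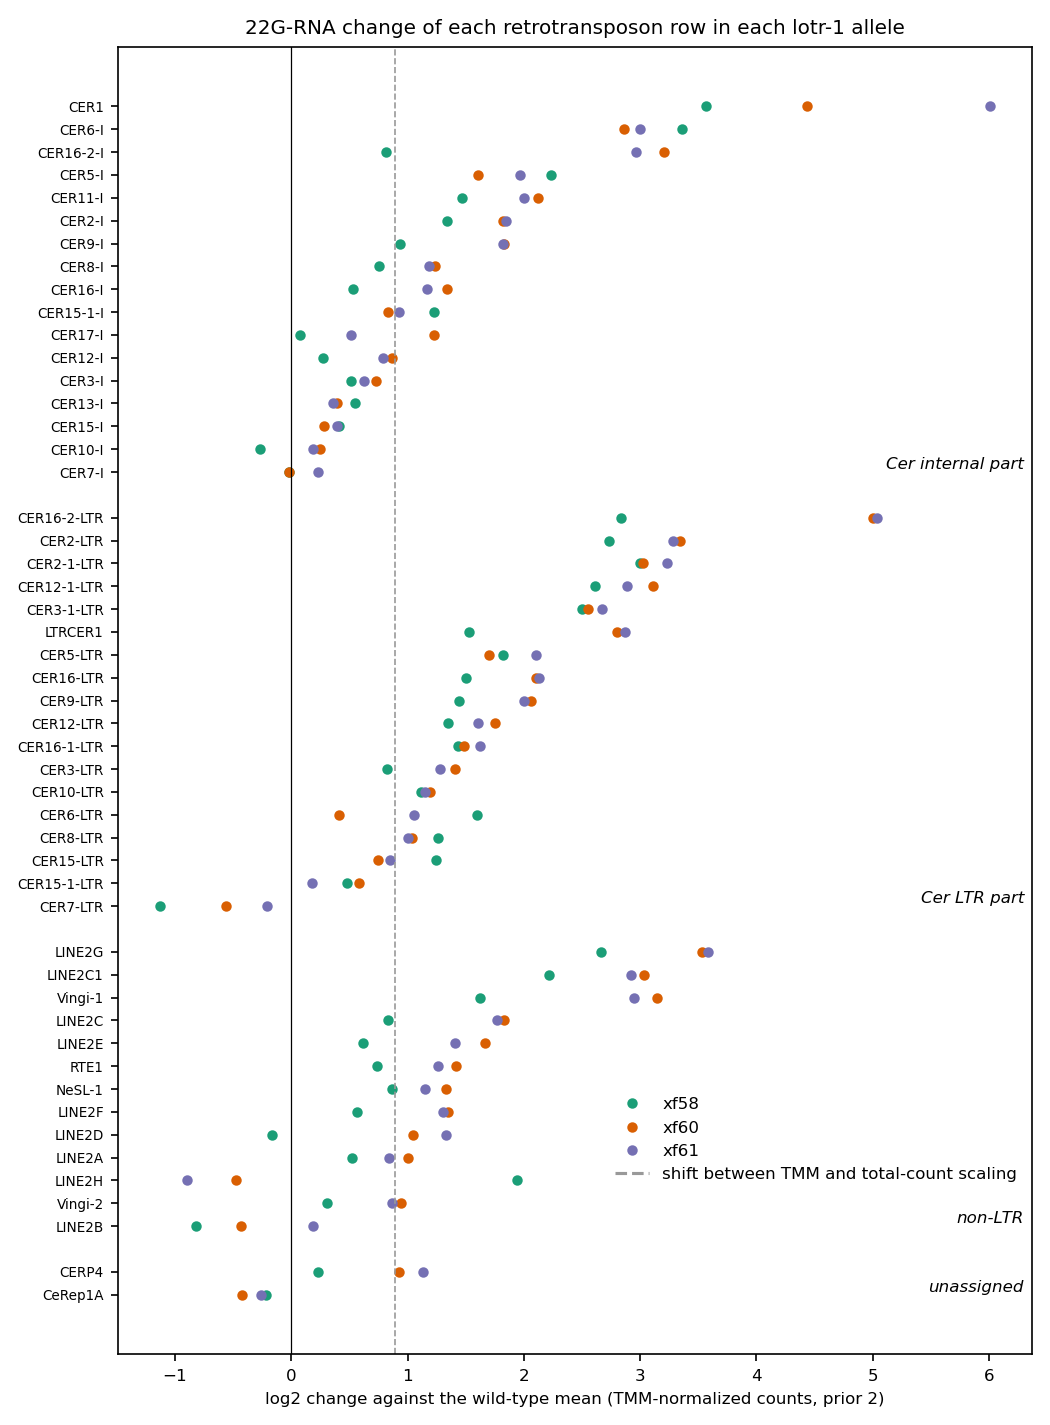
log2 change of TMM-normalized counts (horizontal axis) of each tested row in xf58, xf60 and xf61 relative to the wild-type mean, grouped by class and ordered by the log2 fold change over the 3 alleles. The solid line marks no change and the dashed line the shift of 0.90 between TMM and total-count scaling, and CER1 and CER16-2-LTR_CE reach farthest to the right.

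Among internal parts, CER1 changed most. Cer1 is a retrotransposon of the Ty3/gypsy type whose capsids have been seen in the adult germline of worms. The internal row had 43.9, 47.8 and 46.7 CPM in wild-type, and 340 in xf58, 487 in xf60 and 1560 in xf61. Every mutant library was several times above wild-type, and xf61 was well above the other alleles. The log2 fold change was 5.05 (standard error 0.65, edgeR adjusted p = 7.5e-04) with TMM factors and 4.11 (edgeR adjusted p = 0.00137) with total counts. Without xf61 the value with TMM factors was 4.10. Its LTR row, LTRCER1, had 69.3, 73.4 and 77.4 CPM in wild-type, against 131, 247 and 279 in xf58, xf60 and xf61. LTRCER1 rose by a log2 fold change of 2.52 (standard error 0.35, edgeR adjusted p = 0.00102) with TMM factors and of 1.58 with total counts, a smaller change than that of the internal row and without the high value in xf61.

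The Cer16 rows showed how far close relatives can part. CER16-2-I_CE had 2512, 2448 and 2294 CPM in wild-type, 2621 in xf58, 10732 in xf60 and 9784 in xf61. Here xf58 was near wild-type, and xf60 and xf61 were at 4.44 and 4.05 times the wild-type mean. Over all alleles the log2 fold change was 2.65 (standard error 0.55, edgeR adjusted p = 0.00632) with TMM factors and 1.67 with total counts. CER16-2-LTR_CE had 199, 212 and 180 in wild-type, 870 in xf58, 3049 in xf60 and 3352 in xf61, with a log2 fold change of 4.59 (standard error 0.58, edgeR adjusted p = 6.8e-04) with TMM factors and 3.62 with total counts. By CPM it was well above wild-type in all 3 alleles, whereas its internal part was so in xf60 and xf61. CER16-I_CE had 2537, 2404 and 2303 in wild-type, against 2157, 2931 and 2801 in xf58, xf60 and xf61, and its groups overlapped. It was called up with TMM factors (log2 fold change 1.05, standard error 0.21, edgeR adjusted p = 0.00568), but not with total counts (0.12, edgeR adjusted p = 0.414). The call was lost under the 2-fold cutoff without xf60 (0.88) and without wild-type replicate 3 (0.998), as it was with DESeq2 (0.957), without a count filter (0.903) and in edgeR's test against 2-fold (adjusted p = 0.55). Within a library, where scaling plays no part, the ratio of CER16-2-I_CE to CER16-I_CE counts was 1.00 ± 0.0150 (SD, n = 3) in wild-type, 1.22 in xf58, 3.66 in xf60 and 3.49 in xf61.

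**Figure D4:**
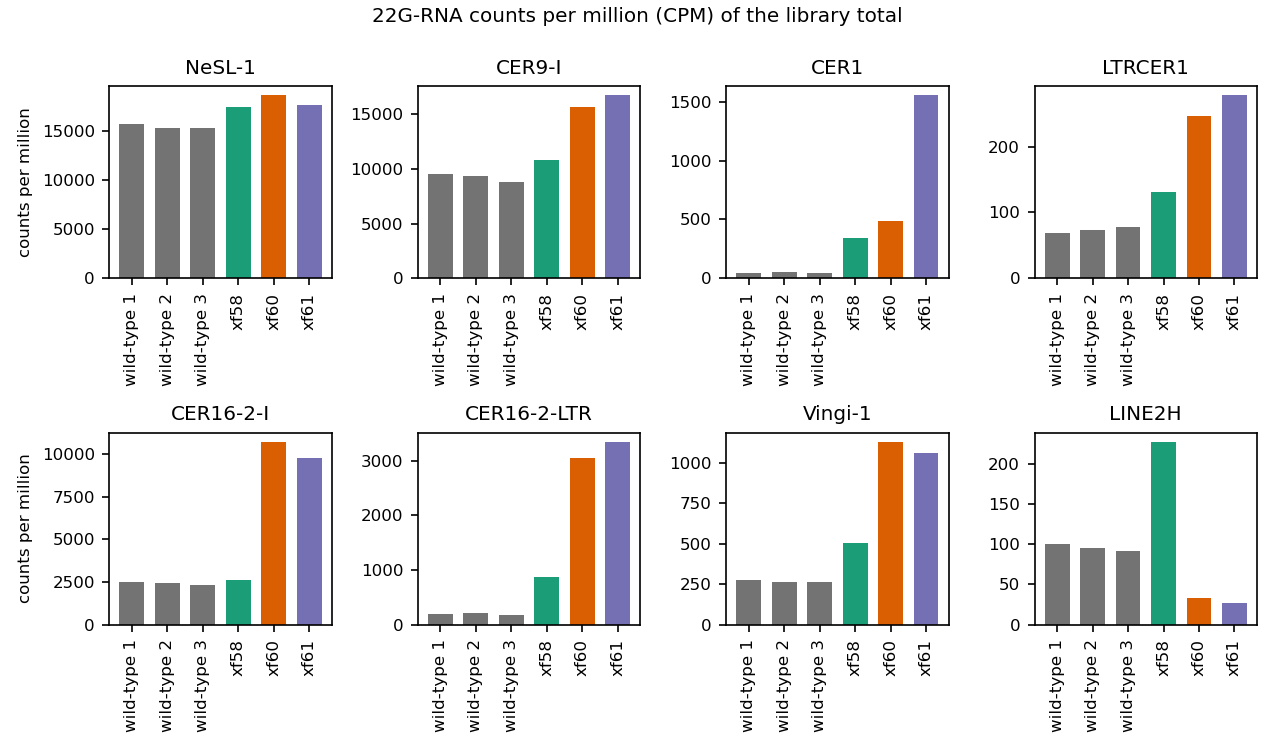
CPM (vertical axes, each from 0) for 8 rows, with 1 bar per library. NeSL-1 changes little, CER1 is highest in xf61 at 1560, CER16-2-I is near wild-type in xf58 at 2621, and LINE2H is above wild-type in xf58 and below it in xf60 and xf61.

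Several LTR rows rose to a like extent in all 3 alleles. CER2-LTR_CE had 135, 139 and 147 CPM in wild-type, against 578, 688 and 709 in xf58, xf60 and xf61, with a log2 fold change of 3.15 (standard error 0.20, edgeR adjusted p = 3.5e-05) with TMM factors and 2.23 with total counts. CER2-1-LTR_CE had 62.8, 61.9 and 70.2 in wild-type, against 323, 256 and 318 in the alleles, a log2 fold change of 3.10 (standard error 0.15, edgeR adjusted p = 1.9e-05) and of 2.20 with total counts. CER12-1-LTR_CE had 293, 302 and 275 in wild-type, against 1092, 1208 and 1112 in the alleles, a log2 fold change of 2.89 (standard error 0.17, edgeR adjusted p = 2.9e-05) and of 1.97 with total counts. In each of these rows, as in CER3-1-LTR_CE with a log2 fold change of 2.58 (1.68 with total counts), the lowest mutant library was at least 2.68 times the highest wild-type library. Both Cer2 rows rose alike, whereas at Cer12 and Cer3 a sister LTR row of the same element had a smaller fold change. CER12-LTR_CE had a log2 fold change of 1.58 and CER3-LTR_CE of 1.19 with TMM factors, and 0.67 and 0.27 with total counts, the last 2 not called. In edgeR's test against 2-fold CER3-LTR_CE was not called either (adjusted p = 0.209). The ratio of CER12-1-LTR_CE to CER12-LTR_CE was 0.261 ± 0.0108 (SD, n = 3) in wild-type, against 0.643 ± 0.0234 (SD, n = 3) in the mutants, and that of CER3-1-LTR_CE to CER3-LTR_CE was 0.613 ± 0.0528 (SD, n = 3) and 1.64 ± 0.307 (SD, n = 3).

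Other abundant internal parts had smaller fold changes than these LTR rows. CER9-I_CE had 10864 CPM in xf58, 15710 in xf60 and 16762 in xf61, above its wild-type values in every allele. Its log2 fold change was 1.58 (standard error 0.24, edgeR adjusted p = 0.00171) with TMM factors and 0.65 with total counts, under the 2-fold cutoff. CER8-I_CE had 5511, 5225 and 4986 in wild-type, against 5458, 5942 and 6144 in the alleles, which overlapped, and its log2 fold change was 1.07 (standard error 0.16, edgeR adjusted p = 0.00149) with TMM factors and 0.16 with total counts, where it was not called. The call with TMM factors was lost without xf60 (0.98), with DESeq2 (0.98), without a count filter (0.93) and in edgeR's test against 2-fold (adjusted p = 0.445). Its LTR row, CER8-LTR_CE, had 272, 271 and 255 in wild-type, 394 in xf58, 263 in xf60 and 277 in xf61, so that xf58 alone stood apart. Its log2 fold change was 1.11 with TMM factors (standard error 0.14, edgeR adjusted p = 6.7e-04) and 0.23 with total counts, where it was not called. The call was also lost without a count filter (0.965) and in edgeR's test against 2-fold (adjusted p = 0.304).

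Some internal parts held a smaller share in every mutant library. CER10-I_CE had 3282, 3115 and 2953 CPM in wild-type, against 1595, 1777 and 1838 in xf58, xf60 and xf61, so the groups lay far apart. The typical locus held a smaller share by a like factor, and the log2 fold change of CER10-I_CE was 0.07 (edgeR adjusted p = 0.739) with TMM factors and −0.84 (edgeR adjusted p = 4.2e-04) with total counts, and it was called on neither scale. CER3-I_CE had 5097, 5002 and 4716 in wild-type, against 4339, 3925 and 3949 in the alleles, and was not called on either scale, with log2 fold changes of 0.62 and −0.28. CER12-I_CE, at 0.66 and −0.26, and CER7-I_CE, at 0.07 and −0.83, were likewise lower in CPM in every mutant library and not called. CER7-LTR_CE had 41.9, 38.9 and 39.1 in wild-type, against 11.1, 12.9 and 17.8 in the alleles. It was the only LTR row called down on either scale, with a log2 fold change of −0.60 (edgeR adjusted p = 0.0672) with TMM factors and −1.51 (edgeR adjusted p = 9.7e-04) with total counts, where it was called down. CeRep1A, whose class is not given, had 437, 418 and 392 CPM in wild-type, against 220, 149 and 179 in the alleles, without overlap. Its log2 fold change was −0.30 (edgeR adjusted p = 0.105) with TMM factors and −1.19 (edgeR adjusted p = 0.00119) with total counts, where it was called down.

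The smallest called change among internal parts was that of CER15-1-I_CE, with 70.9, 67.7 and 64.4 CPM in wild-type, against 98.2, 58 and 66.7 in xf58, xf60 and xf61. These groups overlapped, and the log2 fold change of 1.01 (edgeR adjusted p = 0.00183) with TMM factors was 0.13 with total counts. The call with TMM factors was lost at 0.88 without xf58, at 0.998 without wild-type replicate 2 and at 0.96 without wild-type replicate 3. It was also lost with DESeq2 (0.919), without a count filter (0.865) and in edgeR's test against 2-fold (adjusted p = 0.639).

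The balance between both parts of an element was compared within each library, so that the scale of the libraries cancels. For 12 Cer elements with enough counts, the log2 ratio of internal to LTR counts was lower in all 3 mutant libraries than in all 3 wild-type libraries at 7, higher at 3 and overlapping at 2. Each of the 10 without overlap had p = 0.1 in a two-sided exact permutation test, the smallest p that 3 libraries against 3 allow, and an adjusted p of 0.12 over the 12 elements in this exact test. The groups lay farthest apart in this direction at Cer2, with 1.67 ± 0.117 (SD, n = 3) for wild-type and a mutant mean of 0.22 ± 0.0348 (SD, n = 3) on the log2 scale. At Cer12 it was 0.59 ± 0.0917 (SD, n = 3) in wild-type, against −0.73 ± 0.125 (SD, n = 3) in the mutants, so that the LTR rows came to hold more counts than the internal row. Cer3 differed by −1.25, Cer10 by −1.10 and Cer16 by −0.88, and the differences at Cer15 and Cer9 were −0.37 and −0.31. The ratio differed the other way at Cer1, by 2.27, at Cer6, by 2.04, and at Cer7, by 0.68. Cer6 rests on few counts, since CER6-I_CE had 22, 14 and 16 counts in wild-type, against 112, 68 and 85 in the alleles. Reads that match several places equally well were put at 1 random place, and reads on both parts cannot be followed in these tables.

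**Figure D5:**
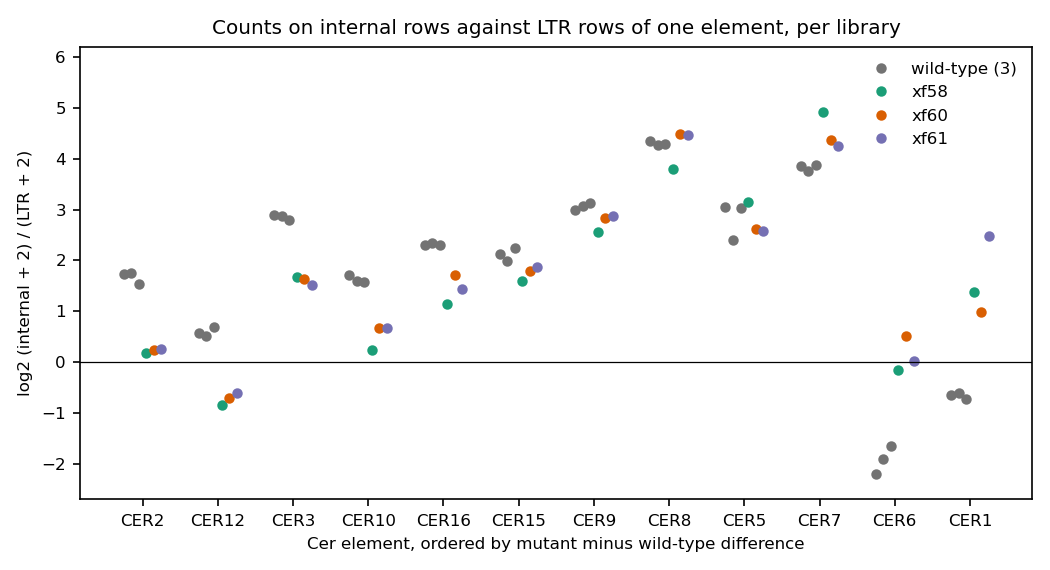
log2 ratio of the counts on internal rows to those on LTR rows (vertical axis, 2 counts added to each), for 12 Cer elements with 1 point per library. The mutant points lie below the wild-type points at 7 elements from Cer2 to Cer9 and above them at Cer7, Cer6 and Cer1.

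Non-LTR families ranged from a smaller share in the mutants, at LINE2B_CE, to a mean CPM 5.24 times that of wild-type, at LINE2G_CE. NeSL-1 had 17357, 18612 and 17629 CPM in xf58, xf60 and xf61, each above the wild-type values given before. Its log2 fold change was 1.13 (standard error 0.15, edgeR adjusted p = 8.2e-04) with TMM factors and 0.21 (edgeR adjusted p = 0.00908) with total counts, under the 2-fold cutoff. The call was also lost without a count filter (0.981) and in edgeR's test against 2-fold (adjusted p = 0.278). RTE1, the founding member of a widespread non-LTR clade, had 2870, 2730 and 2691 in wild-type, against 2836, 3549 and 3422 in the alleles. The groups overlapped through xf58, and the log2 fold change was 1.17 (standard error 0.19, edgeR adjusted p = 0.00219) with TMM factors and 0.24 with total counts, where it was not called, nor was it in edgeR's test against 2-fold (adjusted p = 0.275).

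The 9 LINE2 rows did not move together. LINE2G_CE had 165, 163 and 164 CPM in wild-type, against 645, 917 and 1021 in xf58, xf60 and xf61, with a log2 fold change of 3.32 (standard error 0.27, edgeR adjusted p = 9.2e-05) with TMM factors and 2.39 with total counts. LINE2C1_CE rose by 2.77 and 1.84 on these scales, with mean levels of 503 ± 21.9 (SD, n = 3) in wild-type, against 1803 ± 310 (SD, n = 3) in the mutants. LINE2A_CE, the most abundant of them, had 3400, 3216 and 3082 in wild-type, against 2862, 3121 and 2990 in the alleles, and was not called, with log2 fold changes of 0.80 and −0.11. LINE2F_CE had 743, 698 and 722 in wild-type, against 657, 885 and 920 in the alleles. It was called up with TMM factors only, with log2 fold changes of 1.12 (edgeR adjusted p = 0.00500) and 0.19, and the first was 0.97 without xf60 and 0.967 without a count filter. In edgeR's test against 2-fold its adjusted p was 0.413. LINE2B_CE was called down with total counts only, at −1.22 (−0.31 with TMM factors), with 46, 42 and 34 counts in wild-type, against 12, 14 and 25 in the alleles. With TMM factors 5 of the 9 LINE2 rows were called up and with total counts 2, where 18.8% and 8.68% of all loci were.

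LINE2H_CE divided the alleles. It had 100.2, 95.3 and 91.1 CPM in wild-type, 227 in xf58, 32.9 in xf60 and 26.4 in xf61. Thus the in-frame allele was at 238% of the wild-type mean and the frameshift alleles at 34.4% and 27.6%. Over the 3 alleles it was not called (log2 fold change 0.77, standard error 0.69, edgeR adjusted p = 0.383, and 0.00 with total counts). Without xf58 the fold change was −0.69 (edgeR adjusted p = 2.96e-04), still under the 2-fold cutoff. The Vingi families also parted, since Vingi-1_CE had 274, 261 and 261 in wild-type, against 504, 1132 and 1064 in the alleles, whereas Vingi-2_CE had 303, 293 and 266 and 219, 267 and 271. Vingi-1_CE rose by a log2 fold change of 2.71 (standard error 0.38, edgeR adjusted p = 0.00103) with TMM factors and 1.76 with total counts, and Vingi-2_CE was not called on either scale (0.73 and −0.19). Their ratio within a library was 0.926 ± 0.0492 (SD, n = 3) in wild-type, 2.30 in xf58, 4.24 in xf60 and 3.92 in xf61.

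Over the families as a whole, the alleles differed in size of change. With TMM factors the median log2 change of the 50 rows came to 1.02 for xf58, to 1.38 for xf60 and to 1.29 for xf61. The change was lowest in xf58 at 38 rows (76.0%), against 40.8% of all tested loci and 72.9% of the other repeat families. By CPM it was lowest in xf58 at 32 rows (64.0%), for which the share over all loci was not computed. The xf60 and xf61 libraries lay within 1 log2 unit of each other at 49 of the 50 rows, with CER1 the exception at 1.57. The mean of xf60 and xf61 was more than 1 log2 unit above xf58 at 6 rows, namely CER16-2-I_CE, CER16-2-LTR_CE, Vingi-1_CE, CER1, LTRCER1 and LINE2D_CE, and more than 1 below at LINE2H_CE. For these counts of rows the share over all loci was not computed. Over all tested loci xf60 and xf61 were also the closest mutant pair. Their chi-square per degree of freedom was 10.3, against 66.3 for xf58 with xf60 and 55.2 for xf58 with xf61. LINE2D_CE was not called over all 3 alleles, at 0.88, and was called up without xf58, at 1.22. No test between alleles was made. With 1 library per allele, the alleles cannot be told apart from the worm populations.

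Rows that can exchange reads were also added up before the fit, which left 24 element groups, of which 21 were tested. With TMM factors 13 of these were called up and 0 down, where 18.8% of all loci were called up and 17.6% down in the fit of single rows. With total counts 5 were called up, namely Cer1, Cer2, Cer5, Cer16 and Vingi, and 1 was called down, CeRep1A. In the fit of single rows 8.68% of all loci were called up and 44.6% down on that scale. The log2 fold changes with TMM factors were 4.03 for Cer1, 2.23 for Cer16, 2.19 for Cer2, 2.01 for Vingi and 1.40 for LINE2, and 3.09, 1.27, 1.27, 1.06 and 0.47 with total counts.

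The genes that make or use 22G-RNAs are themselves targets of 22G-RNAs. Of 43 such genes tested, 1 was called up and 4 down with TMM factors, and 0 up and 20 down with total counts, with medians of −0.02 and −0.93. Over all loci 44.6% were called down with total counts and the median was −0.88, so the calls down and the median on this scale were near the background. No gene of the list was called up with total counts, against 8.68% of all loci. With TMM factors 11.6% of the genes were called and 2.33% called up, against 36.4% and 18.8% of all loci. The gene called up was pid-4, which encodes a partner of the Z granule protein PID-2, at 1.00, and those called down were rde-8, which encodes an RNase, at −2.02, mut-2, a nucleotidyltransferase gene, at −1.50, nrde-1, a nuclear RNAi gene, at −1.46, and nyn-2, which encodes a partner of RDE-8, at −1.12. As a check of stage, 22G-RNAs against the major sperm protein family were counted, and 11 of its 31 genes were tested. These 11 held at most 0.00259% of the counts in wild-type, against 0.00400% to 0.00540% in the mutants. With TMM factors 9 of them were called up and 0 down, where 18.8% of all loci were called up. With total counts 8 were called up and 0 down, where 8.68% of all loci were called up. Genes this low can pass the filter on low counts through the mutant libraries alone, so the numbers called up may partly follow from the filter. The 7 oocyte genes, with 0.0274% to 0.0288% in wild-type, against 0.0131% to 0.0139% in the mutants, were called at 0 with TMM factors (edgeR, 4 with an unadjusted p under 0.05, and 4 called down with total counts, where 44.6% of all loci were). Of the 6 yolk genes 1 was tested, and it was called up with TMM factors only. These values show 22G-RNAs and not transcripts, so they do not check the stage directly, and their part in the results for the retrotransposons was not tested.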

How the data were processed

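The authors trimmed adapters with cutadapt 2.4, aligned reads to WBcel235 with Bowtie 1.2.2, placing reads with several best locations at 1 random location, and counted reads of 22G-RNAs antisense to exons or to RepeatMasker families with featureCounts 1.6.2. They deposited raw counts without normalization. A read that fits several families can thus fall on any of them.

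Counts of all rows were fitted with edgeR 4.0.16 in R 4.3.3 (TMM, filterByExpr, glmQLFTest), 3 wild-type against 3 mutant libraries. The standard error is the log2 fold change divided by the root of the F statistic. Single alleles were set against the wild-type mean with a prior of 2 counts. DESeq2 1.42.0, other scalings, filters and thresholds, a block for the replicate number and left-out libraries served as alternatives. Members and lists were chosen with earlier results of these data known. Families given in full were the 8 with the most counts, the 6 largest and 6 smallest called changes with a mean of at least 100 counts, rows called down, and CER1, LTRCER1, RTE1 and NeSL-1. Other families were chosen after their values were seen. Of 45 pathway gene symbols 43 were matched, and retr-1 was not matched and is not reported. Chi-square statistics per degree of freedom between wild-type libraries were 1.58 to 2.03, above the value of about 1 that counting noise alone gives, so no library was counted as a second deposit of another. This does not show that they came from separate worms. The fit was tested on simulated counts with the same spread in both groups and few changed loci. That test does not cover the unequal spread or the shift in scale of these libraries.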

Additional observations from a re-analysis of the deposited data

Results flagged for a closer look

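LINE2H_CE was picked out because the alleles moved in opposite directions, a difference that was not tested. Its log2 change against the wild-type mean with TMM factors came to 1.94 for xf58, to −0.48 for xf60 and to −0.90 for xf61, on 843, 135 and 114 counts against 418, 431 and 345 in wild-type. The xf58 library lay above all wild-type libraries, and both others lay below them, with TMM factors and with total counts. It was 1 of the 50 tested rows to do so, and 127 of the 9285 tested loci (1.37%) did.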

How the results depend on the processing

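Total counts changed the results most, with 18 families called (15 up and 3 down), a median log2 fold change of 0.264 and 6 merged element groups called. On that scale 8.68% of all loci were called up and 44.6% down. The sign was reversed at 13 families, namely CER10-I_CE (−0.84), CER7-I_CE (−0.83), CER3-I_CE (−0.28), CER12-I_CE (−0.26), Vingi-2_CE (−0.19), LINE2A_CE (−0.11), LINE2D_CE (−0.0579), LINE2H_CE (−0.00143), CER15-I_CE (−0.53), CER15-1-LTR_CE (−0.46), CER13-I_CE (−0.44), CER17-I_CE (−0.21) and CERP4 (−0.10), none of them called with TMM factors. Without a count filter CER10-I_CE was at −0.0753 and CER7-I_CE at −0.0791, and with DESeq2 they were at −0.0207 and −0.0253. Without a fold cutoff 1 family was called down. Over the repeat families the retrotransposons held 59.4% (wild-type) and 62.6% (mutants) of the counts. The numbers called up were 22 of 50 rows with a test against a 2-fold change and 28 of 55 without a count filter. They were 32 of 55 with DESeq2 and 43 of 50 without a fold cutoff. Of all loci 12.4%, 12%, 16.5% and 29.3% were called up in these settings, in the same order. Of the 33 calls, 11 were lost in the test against 2-fold, 7 without a count filter and 3 with DESeq2. When 1 library was left out, between 30 and 34 families were called, all of them up, where 17.7% to 19.9% of all loci were called up. LINE2H_CE ranged from −0.69 (without xf58) to 1.203, CER10-I_CE from −0.0291 to 0.216 and CER7-I_CE from −0.0084 to 0.115. The internal to LTR ratio was lower at 7 elements whichever library was left out. Groups that do not overlap stay apart when a library is removed, so this count could not fall and is no check. The replicate numbers did not pair the samples (correlations of deviations 0.01, 0.03 and −0.03). With the replicate block 33 families were called up, where 18.2% of all loci were. Causes were not tested.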
